A study of Mus musculus with 12 samples.

Results

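Glycerolipid synthesis and lipid droplet genes were followed in the refed liver of mice that carry the K289R form of LRH-1. The set held 37 genes chosen by function: the enzymes that build triglyceride and phospholipid from glycerol 3-phosphate, the proteins that coat and fuse lipid droplets, the lipases that empty them and the enzymes of phosphatidylcholine and phosphatidylethanolamine synthesis. Each gene had 1 row in the value table. Of the 37 genes 36 were measured, out of 19938 genes on the array, because the probe set of choline kinase beta (Chkb) also carries a second gene symbol and was left out.

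The study asked how liver transcripts differ between LRH-1 K289R knock-in mice and wild-type (WT) mice after refeeding. LRH-1 is a nuclear receptor encoded by Nr5a2, and K289R exchanges a lysine to which the small protein SUMO can be attached for an arginine. Livers came from 6 LRH-1 K289R males and 6 WT males, all on the C57BL/6J background, after a fast of 24 h and 6 h of refeeding, with 1 Affymetrix gene array per mouse. The knock-in is present in the whole animal, the ages were not given in the sources used here, and no fasted or untreated group was analysed here, so each value describes the refed state.

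Triglyceride is made in the endoplasmic reticulum by stepwise acylation of glycerol 3-phosphate. Phosphatidic acid is formed first, a lipin removes its phosphate to give diacylglycerol, and a DGAT enzyme adds the last fatty acid. Diacylglycerol is also the substrate for phosphatidylcholine and phosphatidylethanolamine, which form the surface of lipid droplets and of secreted lipoproteins. In liver, refeeding sends newly made fatty acids into this pathway, while perilipins and CIDE proteins on the droplet surface and the lipase ATGL set how much of the triglyceride is kept.

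Values are intensities in linear units, 1 per probe set, and array medians lay between 26.8 and 29.2. Signal was not told from background by any detection call here, so a mean under 26.8 is called dim. Hepatocyte markers were bright on every array: the 8 measured markers summed to 35246 to 37242 in K289R and to 36409 to 37594 in WT. A few arrays stood apart. Of 6 pancreatic acinar markers the summed intensity was at most 7214 in K289R, reached on array K289R 3, and at most 167 in WT. The mean log2 level of these markers was 9.36 on K289R 1 and 10.03 on K289R 3, and 4.34 to 4.64 on the other 10 arrays. Acute phase markers, which the liver makes in inflammation, had mean log2 levels of 8.89 on WT 1 and 9.03 on WT 3, and 6.30 to 7.62 on all other arrays.

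K289R livers had more Lpin1 (2.38-fold) and Lpin2 (1.51-fold) transcript on average, while perilipins, CIDE proteins and lipases had log2 differences between -0.14 (Lipe) and 0.16 (Plin5, which was at -0.0018 without the arrays named above). Genes of triglyceride completion and phosphatidylcholine synthesis had small positive differences, of 1.18-fold for Dgat2 and 1.22-fold for Pcyt1a. None of these differences passed the test over all genes. By limma, 0 of 36 members passed after Benjamini-Hochberg adjustment over all 19938 genes, where 0.572% of all genes passed, and the smallest adjusted p of a member was 0.102. At an unadjusted p under 0.05, 7 of 36 members (19.4%) were higher in K289R livers, against 6.42% of all genes, and 0 of 36 were lower, against 5.61% of all genes. The 7 were Lpin1, Pcyt1a, Dgat2, Lpin2, Cept1, Agpat2 and Fitm1. Small positive differences were common: 27 of 36 members (75.0%) lay above 0, against 46.0% of all genes. The median log2 fold change of the members was 0.08, and that of all genes was -0.01. The members were mostly bright: 4 of 36 were dim in both groups, against 8139 of the 19938 genes. With dim genes left out the median was 0.09 for the members and 0.02 for all genes. The shares of all genes given here were not matched for intensity, so part of these contrasts may go with intensity. For 33 of the 36 members the 95% interval of the difference lay within 1.5-fold in both directions, as it did for 97.1% of all genes. The exceptions were Lpin1, Lpin2 and Fitm1.

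Without K289R 1 and 3 and WT 1 and 3, 19 of 36 members lay above 0, and the median was 0.03. The sign turned to negative for 8 members, Agpat5, Plin5, Cideb, Cidec, Abhd5, Hsd17b11, Bscl2 and Pcyt2. Because the arrays measured whole liver, fewer cells of a type and less RNA per cell cannot be told apart.

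**Figure D1:**
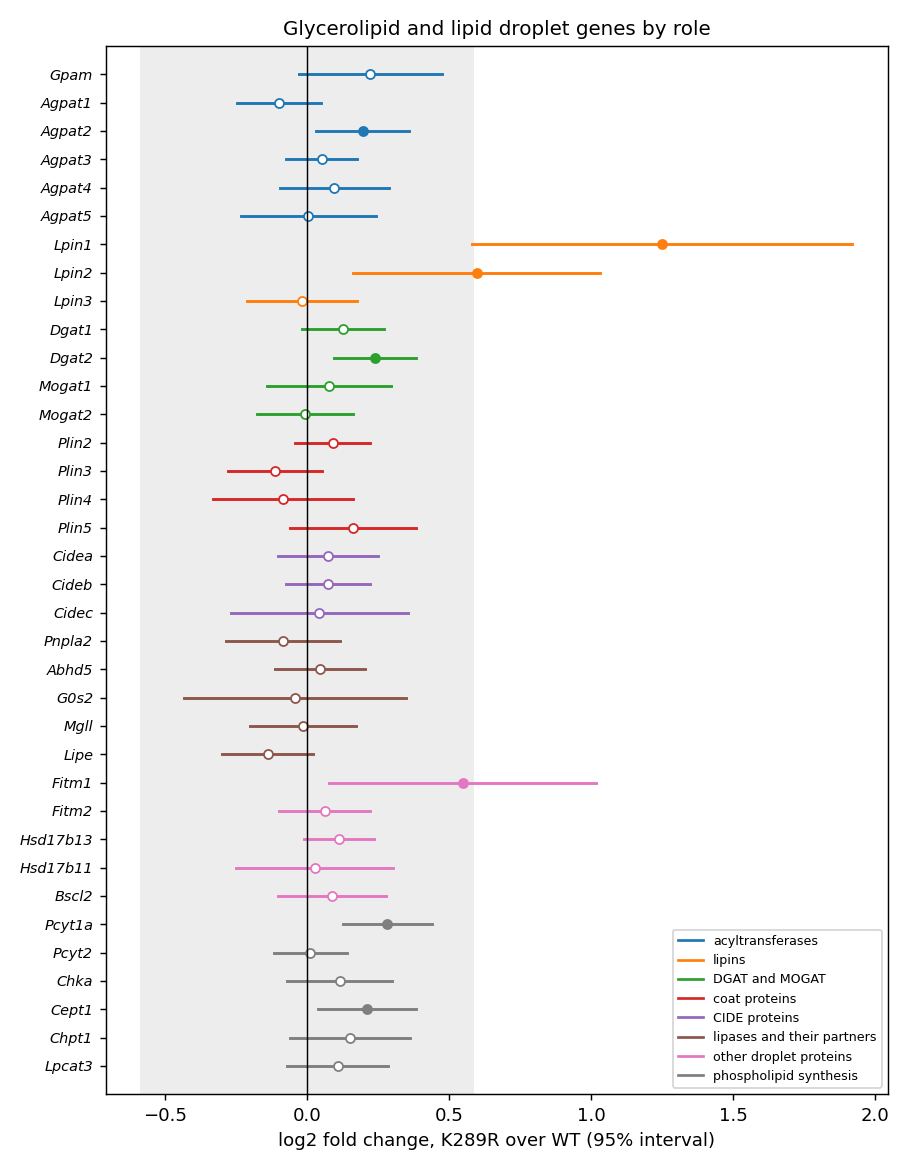
Log2 fold change of each of the 36 measured members, K289R over WT, with its 95% interval, listed by role. Filled points have an unadjusted p under 0.05, the grey band spans 1.5-fold in both directions, and the intervals of Lpin1, Lpin2 and Fitm1 are the ones that leave it.

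The 250 bases before and the 50 bases after the annotated start are shown for the 3 genes with the lowest p that have an entry, since these starts precede the transcripts with the clearest differences. The windows come from RefSeq, build GRCm38.p6. The searched motifs were the LRH-1 element CAAGGTCA, the E-box CACGTG, to which the carbohydrate and sterol regulators ChREBP, SREBP and USF can bind, and the sterol response element TCACCCCAC. Both strands were read, the motifs share no overlap here, and matches are in capitals.
Lpin1 (chr12:16610917-16611216, minus strand): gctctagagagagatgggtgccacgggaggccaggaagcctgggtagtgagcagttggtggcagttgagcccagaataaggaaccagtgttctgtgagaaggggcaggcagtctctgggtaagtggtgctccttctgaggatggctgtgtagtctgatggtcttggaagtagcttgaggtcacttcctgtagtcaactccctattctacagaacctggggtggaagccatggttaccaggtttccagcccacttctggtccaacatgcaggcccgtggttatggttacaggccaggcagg
Pcyt1a (chr16:32430671-32430970, plus strand): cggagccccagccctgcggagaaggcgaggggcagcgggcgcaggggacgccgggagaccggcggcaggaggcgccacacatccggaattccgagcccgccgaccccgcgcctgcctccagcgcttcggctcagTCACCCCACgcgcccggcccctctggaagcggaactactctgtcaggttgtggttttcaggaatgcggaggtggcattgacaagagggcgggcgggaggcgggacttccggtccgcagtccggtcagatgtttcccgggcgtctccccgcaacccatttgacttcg
Lpin2 (chr17:71183282-71183581, plus strand): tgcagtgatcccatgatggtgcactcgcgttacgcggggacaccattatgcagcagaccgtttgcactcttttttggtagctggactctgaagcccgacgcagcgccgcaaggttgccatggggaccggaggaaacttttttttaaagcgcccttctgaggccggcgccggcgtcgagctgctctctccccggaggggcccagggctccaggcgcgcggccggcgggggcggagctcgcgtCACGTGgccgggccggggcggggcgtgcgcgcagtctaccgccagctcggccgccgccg
The Lpin1 window held none of the 3 motifs. Where any window of a gene held a motif, the first such window was shown, so these windows were picked for their match. The sterol response element lay 116 bases before the Pcyt1a start shown, and 2 of the 3 annotated Pcyt1a windows held a motif. The E-box lay 9 bases before the Lpin2 start shown, and 1 of the 3 annotated Lpin2 windows held a motif. Over all 32851 windows of the same length, 0.551% held the sterol response element, 7.15% the E-box and 1.56% the LRH-1 element. Among the members 30 genes had 45 windows. The LRH-1 element was in 0 of the 45 windows, and 45 windows are too few to tell this from a share of 1.56%. The sterol response element was in 2 of the 45, both of Pcyt1a. The E-box was in 5 of the 45, of Lipe, Lpin2, Lpin3, Mgll and Plin2. A match is a run of letters and not a measured binding site.

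Lpin1 and Lpin2, of the lipin family of phosphatidate phosphatases that make diacylglycerol, had the largest log2 differences of the 36 members. Lpin1, whose transcript is induced by fasting in liver and whose protein also acts as a nuclear coactivator, measured 200 to 865 in K289R with a median of 318, against 91.6 to 252 in WT with a median of 145. Of the 6 K289R arrays 3 lay above every WT array, and WT 6 lay above 3 K289R arrays, so the groups overlapped. The fold change was 2.38 (95% interval 1.49 to 3.79, probe set 10399478), and it did not pass (adjusted p = 0.102). The K289R mean was 394 ± 251 and the WT mean 153 ± 60.0 (SD, n = 6 each). The highest value, 865, came from K289R 3, 1 of the 2 arrays with acinar transcripts. The other of these 2 arrays, K289R 1, measured 215, near the low end of its group. Without K289R 3 the log2 difference was 0.98, against 1.25 with all arrays. It was 0.96 (adjusted p = 0.321) without the 4 arrays named above, and between 0.98 and 1.41 with any single array left out.

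Lpin2, the paralog that carries much of the phosphatidate phosphatase activity of liver, measured 189 to 399 in K289R (median 296) and 120 to 291 in WT (median 202). Of the K289R arrays 3 lay above every WT array. Its fold change was 1.51 (95% interval 1.12 to 2.05, adjusted p = 0.254, probe set 10446656). Both lipins were highest on K289R 3, 4 and 5 and lowest on WT 2 and 3. Lpin3, the third family member, stayed near the array median, at 26.8 to 30.1 in K289R and 23.8 to 37.1 in WT, and had a log2 difference of -0.02 (95% interval -0.21 to 0.18). On each array the log2 difference of Lpin1 minus Lpin2 ran from -0.34 to 1.12 in K289R and from -0.60 to -0.21 in WT. It averaged 0.25 ± 0.49 in K289R and -0.40 ± 0.13 in WT (SD, n = 6 each), and 5 of 6 K289R arrays lay above every WT array.

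**Figure D2:**
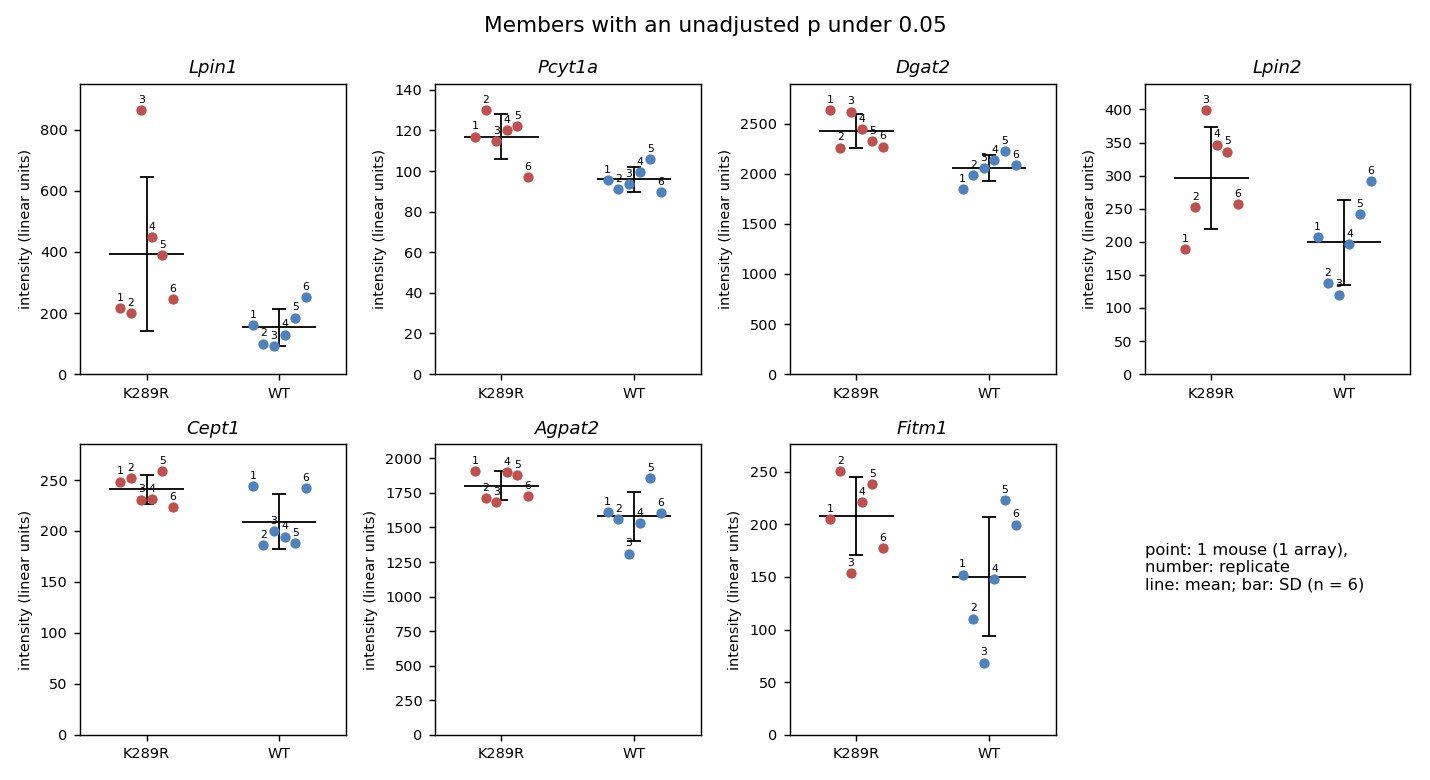
Intensity of the 7 members with an unadjusted p under 0.05 on each array, K289R left and WT right in each panel, in linear units from 0. Each point is 1 mouse with its replicate number, the line is the mean and the bar the SD (n = 6); the Dgat2 groups do not overlap, whereas Lpin1 runs from 200 to 865 in K289R and from 91.6 to 252 in WT.

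DGAT2, the enzyme that completes triglyceride from newly made fatty acids, gave the cleanest separation. Dgat2 measured 2262 to 2638 in K289R (median 2389) and 1845 to 2226 in WT (median 2075). The lowest K289R array lay above the highest WT array. Such a gap between the groups was seen for 1 of 36 members and for 1.24% of all genes. The difference was small, 1.18-fold (95% interval 1.07 to 1.30, adjusted p = 0.150, probe set 10565775). Without the 4 arrays that stood apart its log2 difference was 0.14, against 0.24 with all arrays. Dgat1, which also esterifies preformed fatty acids, measured 133 to 159 in K289R and 118 to 143 in WT, with a log2 difference of 0.13 (95% interval -0.02 to 0.27), which was 0.05 without the 4 arrays. The log2 difference of Dgat2 minus Dgat1 averaged 4.05 ± 0.12 in K289R and 3.93 ± 0.08 in WT (SD, n = 6 each), and the groups overlapped.

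The monoacylglycerol acyltransferases Mogat1 and Mogat2, which make diacylglycerol from monoacylglycerol, were dim in both groups. Mogat1 measured 8.00 to 11.9 in K289R and 7.89 to 11.3 in WT. Mogat2, which is known mainly from the intestine and whose gene lies next to Dgat2, measured 20.4 to 26.1 in K289R and 19.7 to 25.5 in WT. At these levels a difference could not be judged.

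Among acyltransferases of the first steps, Agpat2 had an unadjusted p under 0.05. AGPAT2 turns lysophosphatidic acid into phosphatidic acid, and its loss causes lipodystrophy with fatty liver in mice. Agpat2 measured 1686 to 1910 in K289R (median 1804) and 1312 to 1860 in WT (median 1583), and 3 K289R arrays lay above every WT array. The fold change was 1.15 (95% interval 1.02 to 1.28, adjusted p = 0.328). The lowest array was WT 3, and without WT 1 and 3 the log2 difference was 0.14 (adjusted p = 0.531), against 0.20 with all arrays.

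Gpam, the mitochondrial acyltransferase that starts the pathway and is a target of insulin and SREBP-1c, measured 914 to 1035 in K289R and 573 to 1068 in WT. Its log2 difference was 0.22 (95% interval -0.03 to 0.47), and it was 0.08 without WT 1 and 3 and 0.11 without the 4 arrays. For the other lysophosphatidate acyltransferases the log2 differences were -0.10 for Agpat1, 0.05 for Agpat3 and 0.00 for Agpat5, each with an interval that spans 0, and that of Agpat5 was -0.04 without the 4 arrays. Agpat4 was dim, at 11.5 to 13.5 in K289R and 9.81 to 14.3 in WT.

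Droplet coat proteins of the perilipin family differed little. Plin2, the main perilipin of hepatocyte droplets, measured 1234 to 1452 in K289R and 1148 to 1313 in WT, a log2 difference of 0.09 (95% interval -0.04 to 0.22). Plin5, which links droplets to mitochondria, measured 115 to 186 in K289R and 114 to 135 in WT, a difference of 0.16 (95% interval -0.06 to 0.38), with its highest value on K289R 3. That difference was 0.02 without K289R 1 and 3 and -0.0018 without the 4 arrays. Plin3, which coats nascent droplets, and Plin4, which is known from adipocytes, had differences of -0.11 and -0.08, and that of Plin4 was -0.13 without the 4 arrays. The genes of Plin4 and Plin5 are neighbours on chromosome 17.

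The CIDE proteins, which enlarge droplets by lipid transfer or load triglyceride onto VLDL, had differences of 0.07 for Cideb, 0.04 for Cidec and 0.07 for the dim Cidea. Without K289R 1 and 3 Cidec was at -0.17, and without the 4 arrays Cidec was at -0.07 and Cideb at -0.01. Cidec, which is raised in fatty liver, measured 54.4 on K289R 1 and 48.5 on K289R 3. The other K289R arrays lay at 27.0 to 38.2, and WT arrays at 31.7 to 47.4. The mean log2 level of the adipocyte markers was also highest on these 2 arrays. It was 6.24 on K289R 1, 6.11 on K289R 3 and 5.54 to 5.99 on the other 10 arrays. The single markers differed in this: Fabp4, Retn and Adipoq were highest on these 2 arrays, and Lep on K289R 1. Plin1 and Lpl were highest on WT 1, and Car3 on K289R 5. Of the 7 measured adipocyte markers, adiponectin (Adipoq) and leptin (Lep) were dim in both groups, and 1, resistin (Retn), passed (log2 difference 0.47, adjusted p = 0.0364). Their sum, carried by Car3, which hepatocytes also express, ran from 5445 to 6409 in K289R and from 4127 to 6175 in WT. The part of adipocyte RNA in the Cidec values was not tested.

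Lipases and their partners were the role with mostly negative differences: 4 of 5 members lay below 0, with a median of -0.04, and none had an unadjusted p under 0.05. Pnpla2 encodes ATGL, which removes the first fatty acid of triglyceride, and had a log2 difference of -0.09 (95% interval -0.29 to 0.12). Its coactivator Abhd5 (CGI-58) had 0.05 (95% interval -0.11 to 0.21), and -0.04 without the 4 arrays. G0s2, the inhibitor of ATGL, measured 86.3 to 209 in K289R and 94.9 to 158 in WT, with a difference of -0.04 (95% interval -0.43 to 0.35). Its value of 209 came from K289R 1, and the other K289R arrays reached at most 130. Without K289R 1 and 3 its difference was -0.22, and without the 4 arrays -0.15. Hormone-sensitive lipase (Lipe), which splits diacylglycerol, was at -0.14 (95% interval -0.30 to 0.02), and monoacylglycerol lipase (Mgll), which acts last, at -0.02 (95% interval -0.20 to 0.17). Without the 4 arrays Mgll was at -0.07 and all 5 members lay below 0.

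Other droplet proteins included 1 member with an unadjusted p under 0.05, Fitm1. FIT proteins act in the endoplasmic reticulum at droplet budding, and Fitm1 is known as the muscle form. It measured 153 to 251 in K289R (median 213) and 68.5 to 223 in WT (median 150), with 2 K289R arrays above every WT array. The fold change was 1.46 (95% interval 1.06 to 2.02, adjusted p = 0.339). Its lowest value came from WT 3, and without WT 3 the log2 difference was 0.34, against 0.55 with all arrays. The mean log2 level of skeletal muscle markers was highest on WT 1 (6.80) and K289R 3 (5.90) and was 4.40 to 4.83 on the other 10 arrays, and K289R 3 had the lowest Fitm1 value of its group. The 8 markers summed to 192 to 729 in K289R and to 232 to 1668 in WT, and 3 of them were dim in both groups.

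Fitm2, the widely expressed form, had a log2 difference of 0.06, and Bscl2 (seipin), which organizes the droplet neck, one of 0.09. Bscl2 was at -0.05 without WT 1 and 3 and at -0.07 without the 4 arrays, where Fitm2 was at 0.10. Hsd17b13 and Hsd17b11 are neighbouring genes on chromosome 5 that encode droplet-bound dehydrogenases. Hsd17b13 measured 1007 to 1127 in K289R and 941 to 1052 in WT, with 5 K289R arrays above every WT array and a difference of 0.11 (95% interval -0.01 to 0.23). Hsd17b11 measured 889 to 1061 in K289R and 662 to 1326 in WT, with a difference of 0.03 (95% interval -0.25 to 0.30), and of -0.13 without the 4 arrays.

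Phospholipid synthesis genes all lay above 0, with 6 of 6 measured members and a median log2 difference of 0.13. Without the 4 arrays 5 of 6 did, and the median was 0.05. Pcyt1a, which encodes the rate-limiting enzyme CCT-alpha of phosphatidylcholine synthesis, measured 96.9 to 130 in K289R (median 119) and 89.6 to 106 in WT (median 94.5). Of the K289R arrays 5 lay above every WT array, and K289R 6 lay among the WT values. The fold change was 1.22 (95% interval 1.09 to 1.36, adjusted p = 0.120, probe set 10435057). Without K289R 6 it passed, at a log2 difference of 0.33 (adjusted p = 0.0254), and leaving out any other single array did not make it pass.

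Cept1, whose enzyme completes both phosphatidylcholine and phosphatidylethanolamine, measured 224 to 259 in K289R (median 240.0) and 186 to 244 in WT (median 197). The fold change was 1.16 (95% interval 1.03 to 1.30, adjusted p = 0.312), with WT 1 and WT 6 among the K289R values. Chpt1, the choline-specific counterpart of Cept1, had a log2 difference of 0.15 (95% interval -0.06 to 0.36). Chka, choline kinase alpha, had 0.11 and Lpcat3, which places polyunsaturated chains in phosphatidylcholine, 0.11, both with intervals that span 0. Pcyt2, the matching enzyme of the ethanolamine branch, had 0.01 (95% interval -0.12 to 0.14). Without the 4 arrays the differences were 0.07 for Chpt1, 0.03 for Chka, 0.03 for Lpcat3 and -0.01 for Pcyt2. The log2 difference of Pcyt2 minus Pcyt1a averaged 3.03 ± 0.12 in K289R and 3.30 ± 0.10 in WT (SD, n = 6 each), and ran from 2.91 to 3.26 in K289R and from 3.16 to 3.39 in WT.

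**Figure D3:**
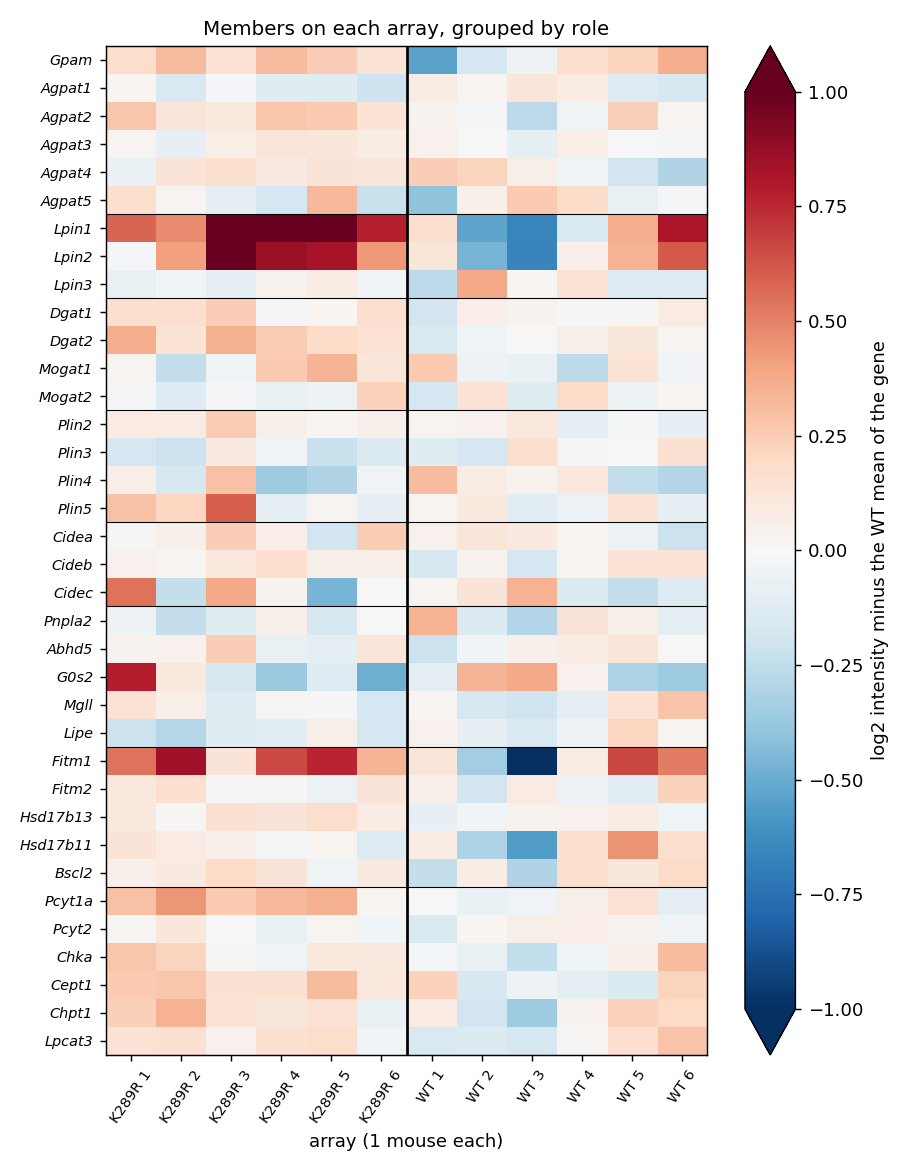
Log2 intensity of each member minus its WT mean, by array, with K289R arrays left and WT arrays right of the vertical line and roles separated by horizontal lines. Red is above and blue below the WT mean, the scale stops at 1 in both directions, and Lpin1, Lpin2 and Fitm1 show the widest contrasts, with WT 3 low for all 3.

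Between mice of 1 genotype the members did not move evenly. WT 3 was the lowest WT array for 15 of 36 members and WT 1 for 9, and these are the arrays with raised acute phase transcripts. WT 5 and WT 6 were each the highest WT array for 10 members. In K289R, array 3 was the highest for 10 members and array 6 the lowest for 10. The part of the acute phase in the WT values was not tested, and without WT 1 and 3 the log2 differences of the 4 members with the lowest p were 1.13 for Lpin1, 0.27 for Pcyt1a, 0.20 for Dgat2 and 0.46 for Lpin2.

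The coefficient of variation was smaller in K289R than in WT for 23 of 36 members (63.9%), against 49.8% of all genes, and its median was 7.75% in K289R and 12.7% in WT. Over all genes the medians were 9.76% in K289R and 9.72% in WT. Gpam varied by 5.69% in K289R and 21.2% in WT, and Hsd17b11 by 6.04% in K289R and 24.0% in WT. The reverse was seen for Lpin1, at 63.8% in K289R and 39.2% in WT, for G0s2, at 36.4% in K289R and 21.8% in WT, and for Plin5, at 19.3% in K289R and 7.18% in WT. Single arrays set some of these values: without K289R 3 the K289R spread of Lpin1 was 37.4%, without K289R 1 that of G0s2 was 16.1%, both below WT, and without K289R 3 that of Plin5 was 12.1%. In WT the spread of Gpam was 14.8% without WT 1, and that of Hsd17b11 18.2% without WT 3. Without the 4 arrays 20 of 36 members (55.6%) had the smaller spread in K289R, against 42.4% of all genes. These spreads were described and not tested.

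**Figure D4:**
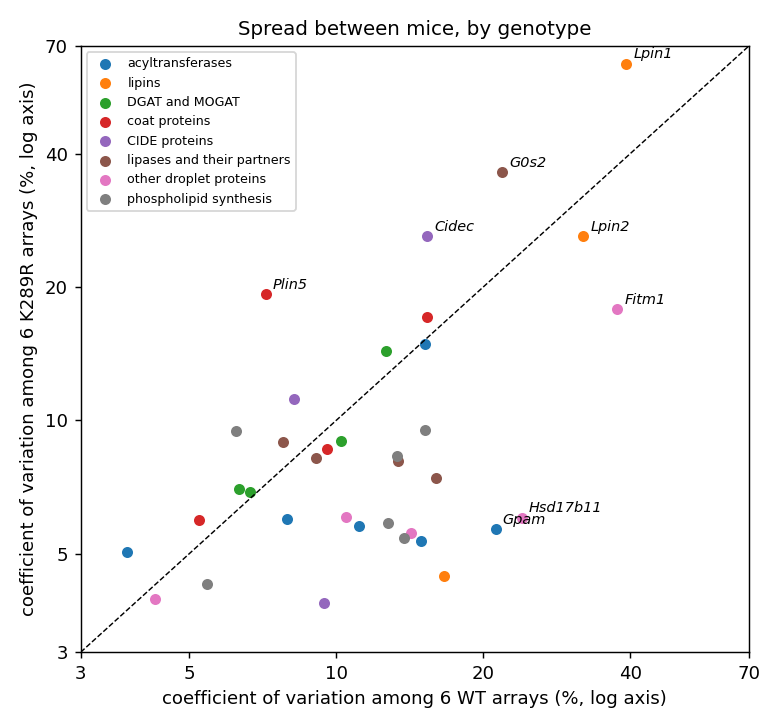
Coefficient of variation of each member among the 6 K289R arrays (vertical, percent, log axis) against that among the 6 WT arrays (horizontal, percent, log axis), coloured by role. Below the dashed line of equal spread lie 23 of 36 members, with Gpam and Hsd17b11 far below it and Lpin1, G0s2, Cidec and Plin5 above it.

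Related genes of the same pathways lay outside the member list, and 46 of them were measured. At an adjusted p under 0.05, 1 of 46 was higher in K289R, against 0.481% of all genes in that direction, and 0 were lower, against 0.0903% of all genes. The gene was Osbpl3, an oxysterol-binding protein of droplet and triglyceride metabolism (adjusted p = 1.36e-07), whose mean was dim in WT but not in K289R. The related genes were chosen with earlier results of these data known, so their counts are descriptive and not an independent test. At an unadjusted p under 0.05 10 of 46 were higher in K289R, against 6.42% of all genes, and 0 were lower. Of the 46, 35 lay above 0, against 46.0% of all genes, with a median of 0.09. Of the 46, 7 were dim in both groups, and the shares of all genes were not matched for intensity here either.

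The glycerol 3-phosphate acyltransferases that share the first step with Gpam all had an unadjusted p under 0.05. Gpat3, the form of the endoplasmic reticulum best known from adipocytes, measured 39.5 to 45.0 in K289R (median 42.1) and 28.9 to 39.9 in WT (median 33.7), with 5 K289R arrays above every WT array (1.24-fold, adjusted p = 0.0932). Gpat4, the other form of the endoplasmic reticulum, measured 110.4 to 144 in K289R (median 137) and 88.4 to 132 in WT (median 107), with 4 K289R arrays above every WT array (1.24-fold, adjusted p = 0.162). Gpat2 was dim, with means of 23.0 in K289R and 19.2 in WT. Gpat3 passed without WT 5 (adjusted p = 0.0427) and when dim genes were left out (adjusted p = 0.0495).

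Among 5 measured genes of glycerol 3-phosphate, acylglycerol and acyl-CoA metabolism, all lay above 0. Not all of them supply substrate for triglyceride: Gpd2 uses glycerol 3-phosphate. Gpd2, the mitochondrial glycerol 3-phosphate dehydrogenase, measured 192 to 285 in K289R (median 213) and 124 to 196 in WT (median 159), with 5 K289R arrays above every WT array (1.42-fold, adjusted p = 0.0572). It passed in 5 of 23 other settings, at adjusted p of 0.0474 with equal array medians, 0.0382 without dim genes, 0.0374 with a trended robust variance, 0.0397 with array weights and 0.0262 without WT 6. Its log2 difference was 0.26 without the 4 arrays that stood apart, against 0.51 with all arrays. Acsl5, an acyl-CoA synthetase, had a log2 difference of 0.26 with all arrays (adjusted p = 0.367) and of 0.11 without WT 1 and 3 (adjusted p = 0.664).

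Of 13 other phospholipid enzymes 11 lay above 0, and Crls1, which makes cardiolipin, had an unadjusted p under 0.05 (1.20-fold, adjusted p = 0.153). Pemt, which turns phosphatidylethanolamine into phosphatidylcholine in liver, had a log2 difference of 0.13 (95% interval -0.03 to 0.28). Among 17 other droplet and triglyceride genes, Pnpla3, a droplet protein induced by feeding, measured 50.7 to 104 in K289R (median 64.2) and 34.2 to 57.8 in WT (median 42.0). Its adjusted p was 0.0753, and it passed without K289R 6 (adjusted p = 0.0339), without WT 6 (adjusted p = 0.0355) or with array weights (adjusted p = 0.0489). Cd36, the fatty acid transporter, was 2.20-fold higher (adjusted p = 0.133), and lysosomal acid lipase (Lipa) 1.19-fold (adjusted p = 0.248). Of these 17 genes 13 lay above 0, and the median log2 difference was 0.09. Those below 0 were Plin1 at -0.12, Aup1 at -0.06, and the dim Tmem159 and Hilpda at -0.03 and -0.01.

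**Figure D5:**
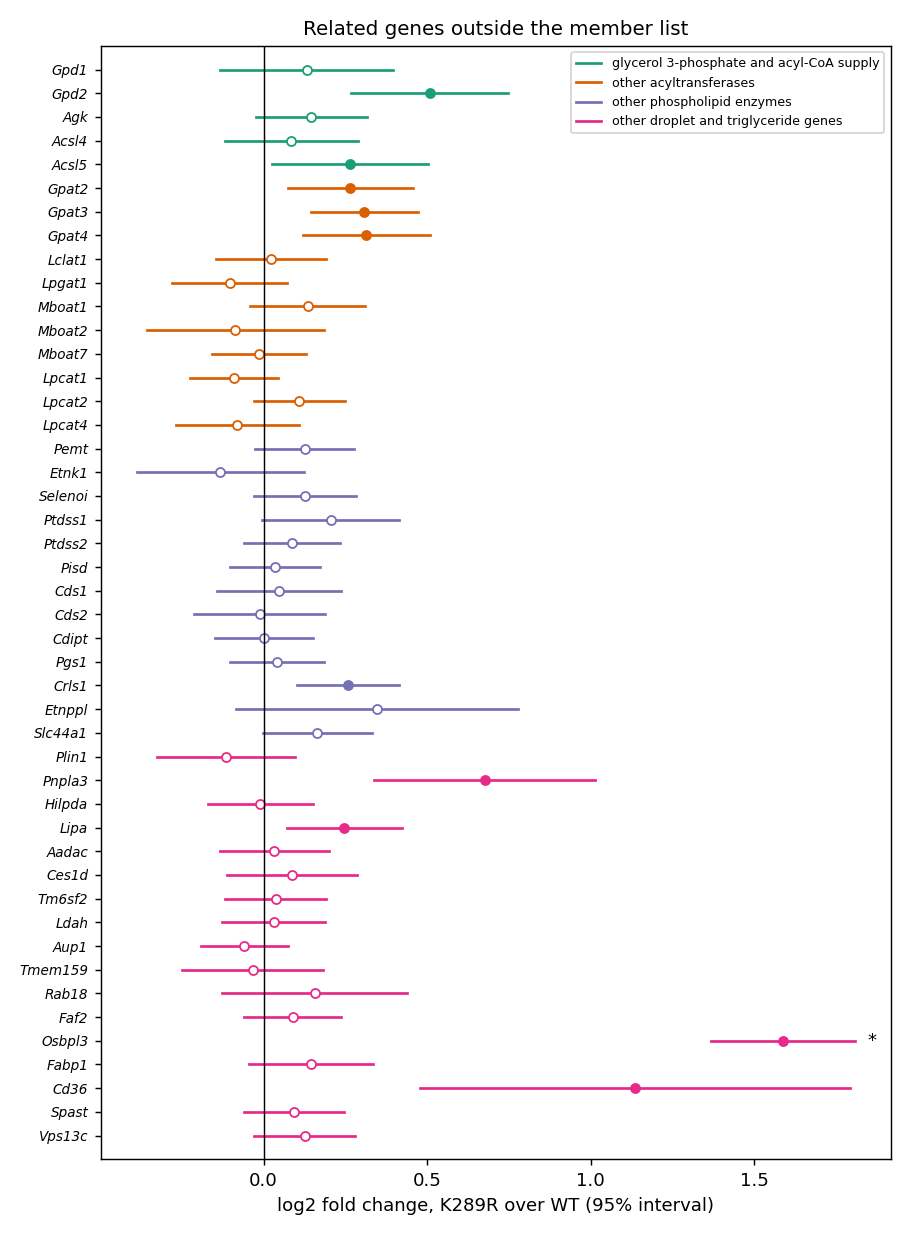
Log2 fold change, K289R over WT, with its 95% interval, of the 46 measured related genes, coloured by group. The group labelled as supply also holds genes that do not supply these substrates. Filled points have an unadjusted p under 0.05 and the star marks the adjusted p under 0.05 of Osbpl3; no filled point lies below 0.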

How the data were processed

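Liver RNA of 12 mice was measured on Affymetrix gene arrays, 1 per mouse. The deposited values are linear intensities made with Affymetrix Expression Console, per the submitters' processing notes; the version, the summarization and the normalization are not stated in the labels. The platform annotation gave 1 symbol to 21789 of 35556 rows, and gene results use these, with symbols updated through the RefSeq gene table. Of several probe sets of a gene, the brightest on average was kept.

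Log2 was taken without a pseudocount. limma 3.58.1 in R 4.3.3 compared 6 K289R with 6 WT arrays, two-sided, without covariates, with Benjamini-Hochberg adjustment over 19938 genes, and was tested on simulated data. Every adjusted p comes from it. Fold changes and 95% intervals rest on log2 values, means ± SD on linear intensities. The number of arrays limits the precision. Groups come from the sample titles. Replicate numbers name different mice, so no block was used.

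The members, lists, motifs and settings were chosen with earlier results of these data known. Ranges were to be given for members with an unadjusted p under 0.05, and up to 4 related genes of each list were named by that threshold; further ranges and names were chosen after their values were seen. Other settings were equal array medians, quantile normalization, dim genes left out, the mean of all probe sets, a trended robust variance, array weights, the replicate block, a pseudocount of 16 and leave-one-out fits. Fits without the arrays that stood apart were added after seeing the data. The labels gave no scan date, so batches were not analysed here. Figures were drawn with matplotlib 3.10.9.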

Additional observations from a re-analysis of the deposited data

Results flagged for a closer look

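A single array lay far from the other 5 of its group in 5 of 92 groups of 6 arrays, where chance gives about 1 in 20. In each, the gap to the nearest array took more of the group's whole range than Dixon's critical value allows. Plin2 measured 1452 on K289R 3, and the other K289R arrays lay between 1234 and 1295. Dgat1 measured 118 on WT 1, and the other WT arrays lay between 134 and 143. Gpat4 measured 110.4 on K289R 6, and the other K289R arrays lay between 132 and 144. Agpat4 measured 11.5 on K289R 1, with the others at 12.9 to 13.5, and Mogat2 measured 26.1 on K289R 6, with the others at 20.4 to 22.1. The last 2 genes were dim.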

How the results depend on the processing

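The 7 members with an unadjusted p under 0.05 had a positive log2 difference under all 23 alternatives. Of these members Pcyt1a alone passed under any, without K289R 6, so the count of members that passed ran from 0 to 1 with 1 array left out and was 0 under the other settings. The count over all genes, 114 as reported, was 75 without K289R 1 and 3, was 65 when WT 1 and 3 were dropped too, and ran from 81 to 159 with 1 array left out. With the replicate block it was 111, with 0 members, and the block changed no call of a member or named related gene; deviations of same-numbered arrays correlated between -0.23 and 0.23, and 1 of 6 K289R arrays correlated best with its own number. The count of related genes that passed, 1 as reported, was 2 with equal array medians or the trended robust variance, 3 when dim genes were left out or with array weights, and 1 to 3 with 1 array left out. Leaving out dim genes shortened the list of genes tested. With 1 array left out, 6 to 9 members had an unadjusted p under 0.05, 25 to 29 lay above 0, the median ran from 0.07 to 0.09, and 9 to 12 related genes had an unadjusted p under 0.05. Of the 7 members, 3 had an unadjusted p of 0.05 or above in some setting: Agpat2 without WT 3, without WT 1 and 3 and without the 4 arrays, Dgat2 without the 4 arrays, and Fitm1 with the trended robust variance, without WT 1 and 3, and without each of K289R 2, K289R 5, WT 2 and WT 3. Equal array medians moved the median of all genes to 0.02, and 30 members then lay above 0, whereas quantile normalization left 24 above 0.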
